A study of Mus musculus with 4 samples.

Results

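Spasmolytic polypeptide-expressing metaplasia (SPEM) is a mucous lineage that appears in the corpus, the acid-secreting part of the stomach, after parietal cells are lost. The 8 genes described here are linked to this lineage and were chosen by name: Dmbt1, Sox9, Cd44, Wfdc2, Clu, Olfm4, Mal2 and Cftr. Each was represented by 1 probe set annotated to a single gene, so the highest-mean rule never had to choose among probe sets, and together they were 8 of 22180 genes measured on the arrays. Of the 8, 6 had a mean log2 level of 5.03 (the median over genes) or more and are called past the filter, as were 11090 genes in all. Wfdc2 (mean 4.63) and Cftr (mean 2.80) lay under it.

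The arrays held RNA of the gastric corpus from 4 groups of adult mice, 8 to 10 weeks old, with 1 array in each. AMPK KO mice carried Atp4b-cre with floxed alleles of Prkaa1 and Prkaa2, the catalytic subunits of AMP-activated protein kinase, and received daily intraperitoneal metformin (300 mg/kg) or saline vehicle for 14 days. C57BL/6 wild-type (WT) mice received the same metformin or vehicle injections. Atp4b-cre acts in parietal cells, whereas the RNA came from the whole corpus, and the KO mice were of a mixed B6 and FVB background, so genotype and strain cannot be told apart. How many animals stand behind each array was not stated.

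The 6 values of Prkaa1 and Prkaa2 outside the WT vehicle array were all below those on it. Prkaa1 had log2 levels of 8.66 (KO metformin), 8.18 (KO vehicle), 8.90 (WT metformin) and 9.46 (WT vehicle), and Prkaa2 had 7.52, 7.19, 8.02 and 8.90 on the same arrays. Both were lowest on the KO vehicle array. Defining markers of the corpus were present on every array, with the proton pump gene Atp4a between 12.80 and 13.22 and the pepsinogen gene Pgc between 13.99 and 14.02. Other parietal cell genes were lower on the KO vehicle array than on the WT vehicle array. The water channel gene Aqp4 was at 7.45 (KO vehicle) against 8.98 (WT vehicle). The sodium-proton exchanger gene Slc9a4 was at 9.36 (KO vehicle) against 10.80 (WT vehicle). Aqp4 and Slc9a4 differed most among 12 parietal cell genes, whose median difference was -0.43, beside -0.22 over all genes past the filter. Ckb and Car2 were each at -0.13. Fewer cells of a type and less RNA per cell cannot be told apart in such bulk RNA.

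SPEM glands arise when chief cells, or mucous neck cell precursors, take on a mucous program that resembles the deep antral glands. The lineage is recognised by the trefoil peptide Tff2 and the gland mucin Muc6, and it gains the secreted protein Wfdc2 (HE4), the cell surface receptor Cd44 and the progenitor factor Sox9. Clu, Dmbt1 and Cftr have been linked to metaplastic or injured mouse glands, and Olfm4 is best known as a crypt stem cell marker of the intestine. Mal2 moves cargo to the apical membrane of polarised epithelial cells.

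Promoter sequences were available for 4 of the 8 genes in RefSeq (GRCm38.p6), each with 250 bases before and 50 after the start of the gene. Cd44 and Olfm4 are shown because both passed the filter and their arrays were ordered differently, with Cd44 highest on the KO metformin array and Olfm4 highest on the WT vehicle array. The Cd44 window is chr2:102901616-102901915 on the minus strand and the Olfm4 window chr14:80000052-80000351 on the plus strand, and capitals mark the motif letters found.
Cd44: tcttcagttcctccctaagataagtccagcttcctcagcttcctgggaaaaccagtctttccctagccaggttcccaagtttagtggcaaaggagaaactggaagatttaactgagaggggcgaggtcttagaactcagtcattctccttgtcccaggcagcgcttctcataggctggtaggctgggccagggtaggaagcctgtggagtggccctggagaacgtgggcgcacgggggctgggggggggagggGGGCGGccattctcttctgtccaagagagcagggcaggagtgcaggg
Olfm4: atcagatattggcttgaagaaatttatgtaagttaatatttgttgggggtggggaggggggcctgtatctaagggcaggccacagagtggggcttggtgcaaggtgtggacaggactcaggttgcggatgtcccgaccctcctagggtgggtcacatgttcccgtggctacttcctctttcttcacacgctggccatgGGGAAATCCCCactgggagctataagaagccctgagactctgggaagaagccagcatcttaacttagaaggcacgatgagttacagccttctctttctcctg
The Cd44 window held 1 GC box (GGGCGG, read on both strands), which 35.7% of all 32851 promoter windows of this length held. The Olfm4 window held 2 overlapping matches to the NF-kappaB consensus (both strands searched), and 8.5% of all windows held a match. Neither window, nor those of Wfdc2 and Cftr, held the SOX core (AACAAT or its reverse complement ATTGTT, in 10.7% of windows) or a TATA box (TATAAA or TTTATA, in 13.6%). The Cftr window alone of the 4 held a cAMP response element (TGACNTCA on either strand, in 8.8% of windows), together with 6 GC boxes, some of them overlapping, and the Wfdc2 window held 1 GC box. These matches describe the letters of the windows and show no binding, and a missing match says only that these letters are not in the window.

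Dmbt1 encodes a secreted scavenger receptor glycoprotein of mucosal surfaces. Its log2 levels were 7.74 on the KO metformin array, 6.40 on the KO vehicle array, 5.75 on the WT metformin array and 5.59 on the WT vehicle array. Both KO arrays lay above both WT arrays, with the KO metformin array far above the rest. Its range over the 4 arrays, 2.15 log2 units, was the largest of the 8 genes, and without its highest array its mean was 5.92, still past the filter.

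Sox9 is a transcription factor of progenitors in many endodermal epithelia. Its log2 levels were 9.61 (KO metformin), 8.53 (KO vehicle), 8.83 (WT metformin) and 9.43 (WT vehicle). The KO metformin and WT vehicle arrays were the higher pair, so the genotypes overlapped and so did the treatments. The other SoxE factors did not share this order, with Sox8 between 4.55 and 5.07 and Sox10 between 4.98 and 5.52, where Sox10 was highest on the KO vehicle array.

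Cd44 is a receptor for hyaluronan whose splice variants mark metaplastic glands, and variants were not told apart by the 1 probe set used. It had log2 levels of 5.82 (KO metformin), 4.83 (KO vehicle), 5.05 (WT metformin) and 5.25 (WT vehicle). The order of the arrays was the same as for Sox9, and the centred profiles of both genes differed by 0.19 (root mean square, log2). The KO vehicle value lay under the filter value, so differences from it are not read as exact folds, and without its highest array the mean was 5.04, just past the filter.

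The secreted chaperone Clu had log2 levels of 9.95 (KO metformin), 9.84 (KO vehicle), 9.80 (WT metformin) and 9.96 (WT vehicle). Its range of 0.17 was the smallest of the 8 genes, and neither genotype nor treatment separated the arrays. Olfm4, a secreted glycoprotein, had 5.71 (KO metformin), 5.55 (KO vehicle), 5.71 (WT metformin) and 6.08 (WT vehicle), so the WT vehicle array stood highest and the others lay within 0.17 of each other.

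Mal2 had log2 levels of 10.32 (KO metformin), 10.11 (KO vehicle), 10.50 (WT metformin) and 10.99 (WT vehicle). Both KO arrays lay below both WT arrays. Among genes past the filter, 24.1% had both KO arrays below both WT arrays and 12.0% had them above. With 1 member below (Mal2) and 1 above (Dmbt1) among 6, the members' shares lay near this background.

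Wfdc2, a secreted protein with whey acidic protein domains, had log2 levels of 4.90 (KO metformin), 5.00 (KO vehicle), 4.33 (WT metformin) and 4.29 (WT vehicle). The chloride channel gene Cftr had 2.71 (KO metformin), 3.79 (KO vehicle), 2.33 (WT metformin) and 2.38 (WT vehicle). For both genes the KO arrays lay above the WT arrays and the KO vehicle array was highest, but all 8 values lay under the filter value and no fold is given.

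**Figure D1:**
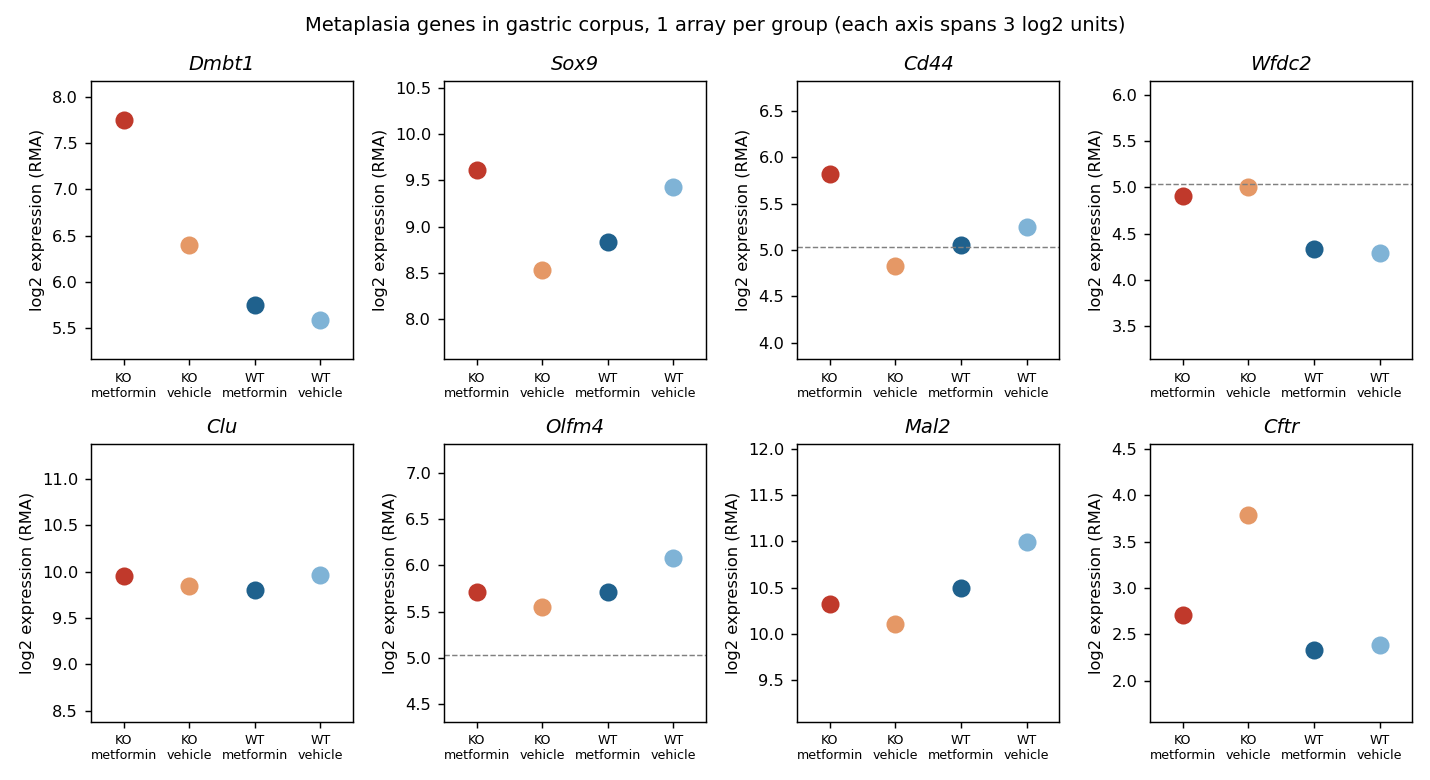
Log2 expression (RMA) of each of the 8 genes on the 4 arrays, 1 point per array, with every vertical axis spanning 3 log2 units and the dashed line at the filter value of 5.03. Dmbt1 falls into KO arrays (7.74 and 6.40) above WT arrays (5.75 and 5.59), Sox9 and Cd44 are lowest on the KO vehicle array, and Clu lies within 0.17 on all arrays.

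The metformin response of corpus with Prkaa1 and Prkaa2 targeted in parietal cells was read from the KO metformin array against the KO vehicle array. The parietal cell gene Atp4a was at 12.94 (KO metformin) and 12.80 (KO vehicle). The RNA was that of the whole corpus, and the cell type in which metformin acted was not tested. Dmbt1 was higher with metformin by 1.34 on the log2 scale (2.54-fold) and Sox9 by 1.08 (2.12-fold), while Cd44 was higher by 0.99. These were the 2 members of 6 that reached a difference of 1, the size rule used here, against 2.44% of all genes past the filter that were higher and 0.613% that were lower by that much. Among the 11090 genes the differences of Dmbt1 and Sox9 were numbers 89 and 197 from the top. After cyclic loess scaling Sox9 was at 0.93 and Cd44 at 1.03, so which of the pair passes the size rule depends on the scaling.

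The other 3 members past the filter differed little between the KO arrays, with Mal2 at 0.21, Olfm4 at 0.16 and Clu at 0.10 beside a median of 0.11 over all genes. Wfdc2 was at -0.10. Cftr was at -1.08, between values of 2.71 (KO metformin) and 3.79 (KO vehicle). The median over the 6 members past the filter was 0.60, and over all 8 it was 0.19. With 1 array per group these differences have no replicate check and no p-value.

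Squamous epithelium genes, which mark the forestomach that borders the corpus, moved in the same direction between the same arrays. Of 9 measured squamous genes, 8 were highest on the KO metformin array, with a list median level of 6.62 (KO metformin), 4.46 (KO vehicle), 4.51 (WT metformin) and 3.92 (WT vehicle). The keratins Krt10 and Krt4 had 8.69 and 7.26 on the KO metformin array, against at most 5.44 and 3.83 on the others, while the basal cell gene Trp63 was between 3.03 and 3.60 on all arrays. The part of squamous tissue in the levels of Dmbt1, Sox9 and Cd44 was not tested.

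In WT mice, whose AMPK genes were not targeted, no member reached a difference of 1 with metformin. Of all genes, 0.775% were higher and 0.929% lower by that much. The most negative values were those of Sox9 (-0.60), Mal2 (-0.50) and Olfm4 (-0.37), followed by Cd44 (-0.19) and Clu (-0.17). Dmbt1 was at 0.16, Wfdc2 at 0.04 and Cftr at -0.06. The median over the 6 members past the filter was -0.28, beside -0.14 over all genes. Sox9 lay inside the central 95% of all genes, which ran from -0.82 to 0.67.

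The metformin responses of the genotypes rest on separate arrays and can be set side by side. Sox9 was at 1.08 in KO and -0.60 in WT, a difference of responses of 1.68. The difference of responses was 1.18 for both Dmbt1 (1.34 in KO and 0.16 in WT) and Cd44 (0.99 in KO and -0.19 in WT). These 3 of 6 members passed a difference of 1, against 11.2% of all genes with a KO response higher by that much and 3.61% with one lower. For all 6 members past the filter the KO response was above the WT response, and for Wfdc2 (-0.14) and Cftr (-1.03) it was below. The median difference of the 6 was 0.95 beside 0.26 over all genes. That all-gene median was itself positive, so most genes past the filter also had a KO response above the WT response. Prkaa1 (1.03) and Prkaa2 (1.21) showed the same order of responses.

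**Figure D2:**
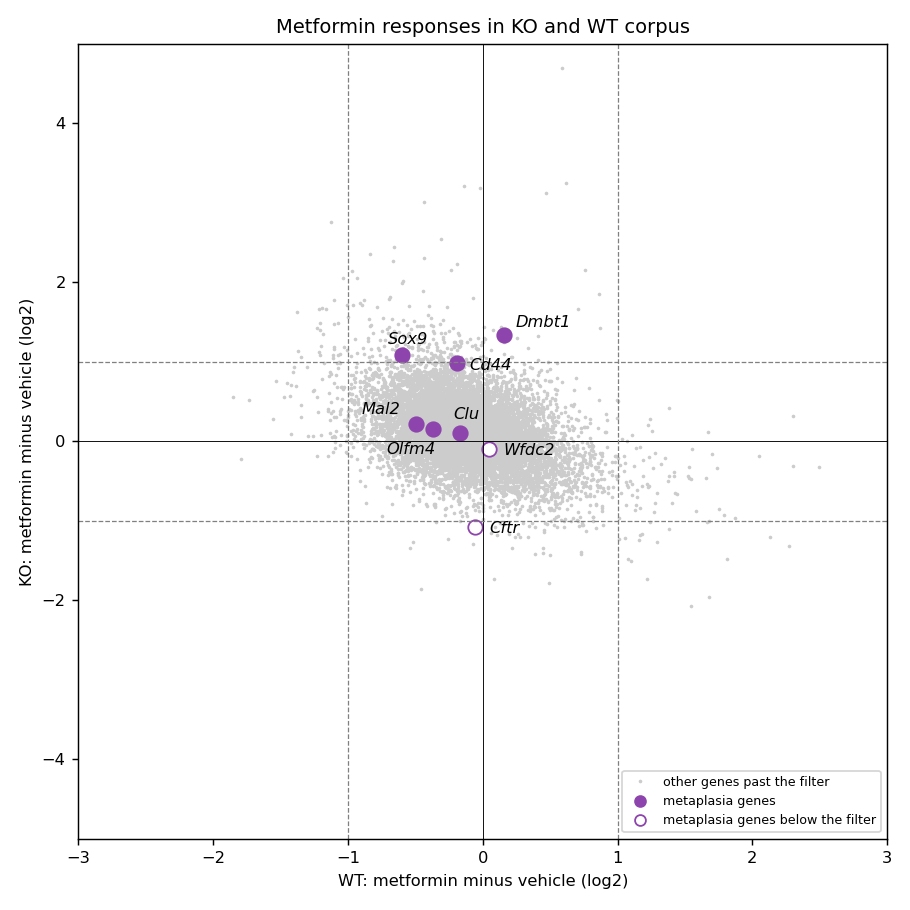
Log2 difference of metformin from vehicle in KO mice (vertical axis) against the same difference in WT mice (horizontal axis), with 1 grey point per gene past the filter and purple points for the 8 genes (open where the mean lies under the filter). Dmbt1 (1.34) and Sox9 (1.08) lie above the dashed line at 1 for KO, Cd44 lies just under it at 0.99, and none of the 8 passes 1 in either direction in WT.

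Under vehicle, the KO array was set against the WT array to ask what the loss of AMPK from parietal cells goes with in untreated corpus. No member past the filter differed by 1, against 2.31% of all genes higher and 8.12% lower by that much. Sox9 (-0.90) and Mal2 (-0.88) were lowest, followed by Olfm4 (-0.53), Cd44 (-0.42) and Clu (-0.12), and Dmbt1 was higher by 0.81. The median over the 6 was -0.47 beside -0.22 over all genes. Cyclic loess scaling brought the median over all genes to -0.07, and centring every array on its median brought it to -0.37. Relative to all genes as deposited, Sox9 was at -0.68, Mal2 at -0.66 and Dmbt1 at 1.03. With centred arrays Sox9 (-1.05) and Mal2 (-1.03) passed the size rule, and with them 1359 of 11090 genes were lower.

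Of the 6 members past the filter, 4 (Sox9, Cd44, Olfm4 and Mal2) were lowest on the KO vehicle array, and so were 44.3% of all genes past the filter. On the KO metformin array 3 members (Dmbt1, Sox9 and Cd44) were highest, against 20.8% of all genes, and on the WT vehicle array the other 3 (Clu, Olfm4 and Mal2) were highest, against 46.2%. Both comparisons with the KO vehicle array share that array, so the low Sox9 value enters the difference from WT vehicle (-0.90) and the metformin difference in KO (1.08) alike.

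Under vehicle, the KO value minus the WT value was 0.71 for Wfdc2 and 1.40 for Cftr, differences between levels under the filter value that are not read as a direction. Over all genes under the filter the median difference in that comparison was 0.22, against -0.22 over the genes past it, and 46.6% of the genes under it were highest on the KO vehicle array, against 19.7% of those past it. Cdx2 and Pdx1, also under the filter, were highest on the KO vehicle array too, but their KO arrays did not both lie above their WT arrays. Cdx2, an intestinal homeobox factor, had 3.83 (KO metformin), 4.52 (KO vehicle), 3.84 (WT metformin) and 3.11 (WT vehicle), and Pdx1, a homeobox factor of the antrum, had 4.46, 5.02, 4.47 and 3.92 on the same arrays. Fatty acid binding protein Fabp2 passed the filter, with 7.70 (KO metformin), 7.98 (KO vehicle), 7.58 (WT metformin) and 6.25 (WT vehicle), while the antral hormone gene Gast, highest on the KO metformin array, had 5.88, 5.86, 5.60 and 5.40. Of the 4 intestinal genes past the filter, Fabp2 and the trefoil peptide gene Tff3 were highest on the KO vehicle array, with Tff3 at 5.41 (KO metformin), 5.71 (KO vehicle), 5.12 (WT metformin) and 5.09 (WT vehicle). The other 2, the stem cell receptor Lgr5 and the apolipoprotein gene Apoa4, were at -0.78 and -0.63 in KO minus WT under vehicle, and the endocrine gene Chga of the antral list was at -1.01. The part of these cell types in the Wfdc2 and Cftr values was not tested.

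Under metformin, the KO array was set against the WT array. Dmbt1 was higher in KO by 1.99 (3.97-fold), number 17 from the top of 11090 genes, and was the 1 member of 6 past the size rule, against 0.532% of all genes higher and 0.388% lower by that much. Sox9 was higher by 0.78 (1.72-fold) and Cd44 by 0.76 (1.70-fold), numbers 119 and 129 from the top, above the central 95% of all genes (-0.60 to 0.62). Wfdc2 was at 0.57, Cftr at 0.38, Clu at 0.15, Olfm4 at 0.00 and Mal2 at -0.17. The median was 0.46 over the 6 members and 0.47 over all 8, beside 0.02 over all genes past the filter. Under the strictest filter, the 75th percentile of gene means, Dmbt1 dropped out and no member passed.

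**Figure D3:**
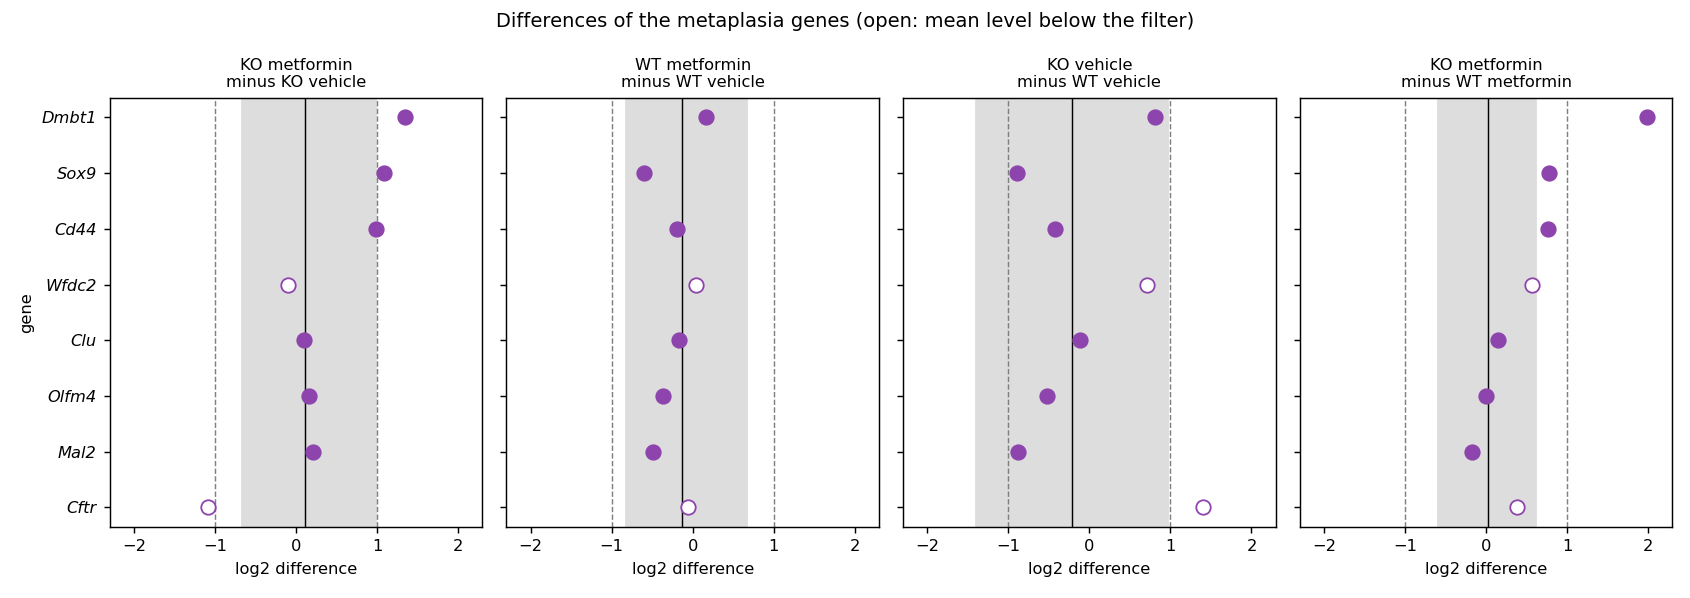
Log2 difference of each of the 8 genes in 4 comparisons, each between 2 arrays, with grey bands for the central 95% of all genes past the filter, black lines for their median and dashed lines at differences of -1 and 1. Dmbt1 lies to the right of the band in the KO metformin response (1.34) and in KO against WT under metformin (1.99), and open circles mark Wfdc2 and Cftr, whose mean lies under the filter.

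Averaged over both treatments, KO minus WT was fitted in limma over all 11090 genes with treatment as a term. Each SE given here was moderated in limma by the variance of all genes and is not the spread of the gene's own arrays. Dmbt1 averaged 7.07 on the KO arrays and 5.67 on the WT arrays, a difference of 1.40 ± 0.36 (SE, 2 arrays against 2). Its Benjamini-Hochberg adjusted p was 0.999 in limma. The next largest differences were those of Mal2 (-0.53 ± 0.32 SE) and Olfm4 (-0.26 ± 0.31 SE), with the same adjusted p of 0.999. Sox9 was at -0.06 ± 0.41 SE, since its KO arrays lay on both sides of its WT arrays. No member of 6 passed an adjusted p of 0.05 in limma, 1 (Dmbt1) had an unadjusted p under 0.05, 374 of the 11090 genes had one under 0.05, and 0.0361% of all genes were called higher and 0.00902% lower. With 1 residual degree of freedom, a real difference between the responses would count as error in this fit.

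For metformin minus vehicle averaged over both genotypes, Dmbt1 was at 0.75 ± 0.36 (SE, moderated in the same way). Its means were 6.75 on the metformin arrays and 6.00 on the vehicle arrays. Cd44 was at 0.40 ± 0.36 and Sox9 at 0.24 ± 0.41 (SE), and the other 3 members lay between -0.14 and -0.03. No member, and none of the 11090 genes, passed the adjusted p in limma (0.0% called in each direction), and 32 genes, none of them a member, had an unadjusted p under 0.05.

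The genes with the array profile nearest to a member were sought for the members past the filter with a range of at least 1, which were Dmbt1 and Sox9, among 10407 named genes past the filter. Nearness was the root mean square difference of log2 profiles over the 4 arrays, each centred on its own mean. For Dmbt1 the nearest were the squamous keratin Krt13 (0.23), Lypd5 (0.25) and Prnd (0.34), and 2 genes lay within 0.25. Krt13 had log2 levels of 6.62 (KO metformin), 4.95 (KO vehicle), 4.66 (WT metformin) and 3.96 (WT vehicle). For Sox9 the nearest were Creb3l1, a membrane-bound transcription factor of the secretory pathway (0.03), Urb1, a ribosome biogenesis gene (0.05), and Crtc3, a coactivator of CREB (0.05), and 892 genes lay within 0.25. Among the genes searched, the Sox9 profile was thus common and the Dmbt1 profile was rare, and both counts depend on the filter. A profile with a larger range has fewer neighbours at a fixed distance, and 4 arrays are few points for likeness.

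**Figure D4:**
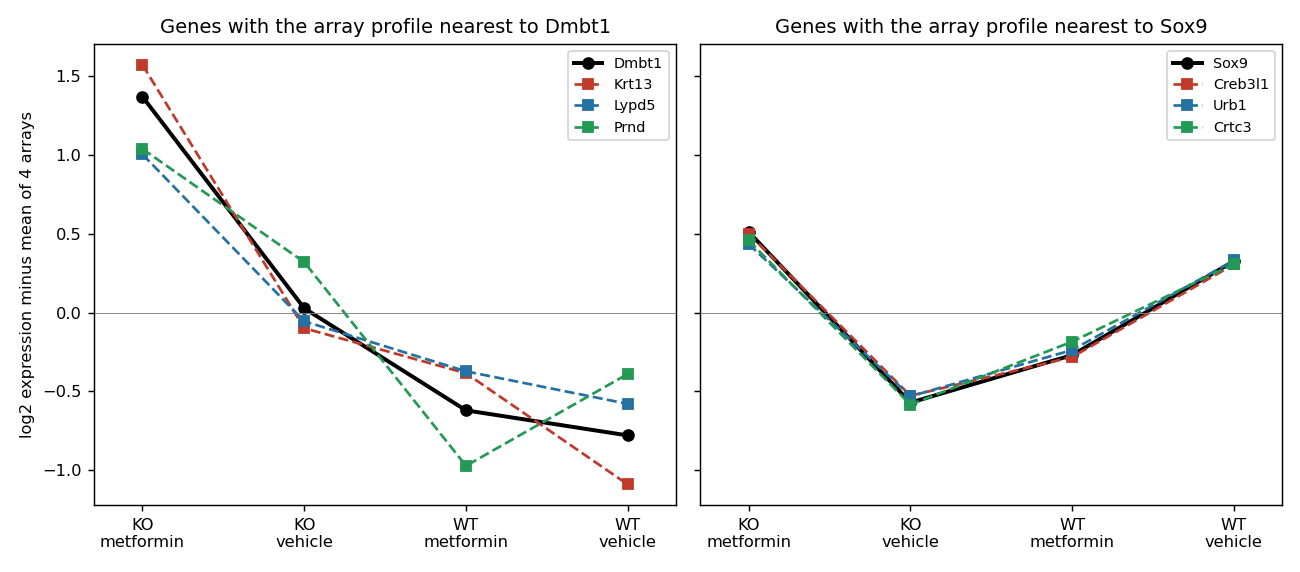
Log2 expression minus the mean of the 4 arrays for Dmbt1 (left) and Sox9 (right, both black) and for the 3 genes nearest to each in array profile (dashed). Krt13, Lypd5 and Prnd are highest on the KO metformin array as Dmbt1 is, with distances of 0.23 to 0.34, and Creb3l1, Urb1 and Crtc3 follow Sox9 within 0.05.

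A further 16 genes linked to the metaplastic lineage were examined, of which 12 passed the filter. In KO with metformin 1 of the 12, Muc6, was higher by at least 1 (1.22), and none was lower. Of all genes past the filter, 2.44% were higher and 0.613% lower by that much. Gkn3, a gastrokine of neck cells, was at 0.96, the surface glycoprotein Prom1 at 0.82 and the water channel Aqp5 at 0.73, while the lysosomal protease Ctss was at -0.58 and Tff2 at -0.19. In WT with metformin none of the 12 reached 1, against 0.775% of all genes higher and 0.929% lower by that much. The highest was Tff2 (0.98) and the lowest Muc6 (-0.63). The trefoil peptide and the gland mucin, the pair by which the lineage is usually recognised, thus differed in opposite directions in both genotypes.

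In KO against WT under vehicle, 2 of the 12 were lower by at least 1, Prom1 (-1.20) and Muc6 (-1.05), and none was higher, with Tff2 at 0.89. Of all genes past the filter, 8.12% were lower and 2.31% higher by that much. Under metformin 2 of the 12 were higher, Gkn3 (1.27) and Aqp5 (1.05), and none was lower, with Muc6 at 0.80 and Tff2 at -0.28. Here 0.532% of all genes were higher and 0.388% lower by at least 1. Muc6 had log2 levels of 11.62 (KO metformin), 10.41 (KO vehicle), 10.82 (WT metformin) and 11.45 (WT vehicle), the same order of arrays as Sox9 and Cd44. Tff2 had 12.34 (KO metformin), 12.53 (KO vehicle), 12.62 (WT metformin) and 11.64 (WT vehicle), so the WT vehicle array was lowest. Muc4 and Mmp12 lay under the filter on average, as did Gpx2 and Slc7a11. Muc6, Tff2, Gkn3 and Aqp5 are also among 6 mucous neck cell genes examined. The median of those 6 was 0.85 in KO and -0.21 in WT with metformin. In KO against WT it was 0.11 under vehicle and 0.86 under metformin. The neck cell gene A4gnt (1.19, -1.03, -1.48 and 0.74 in the same comparisons) had the signs of Muc6. The part of ordinary neck cells in these values was not tested.

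**Figure D5:**
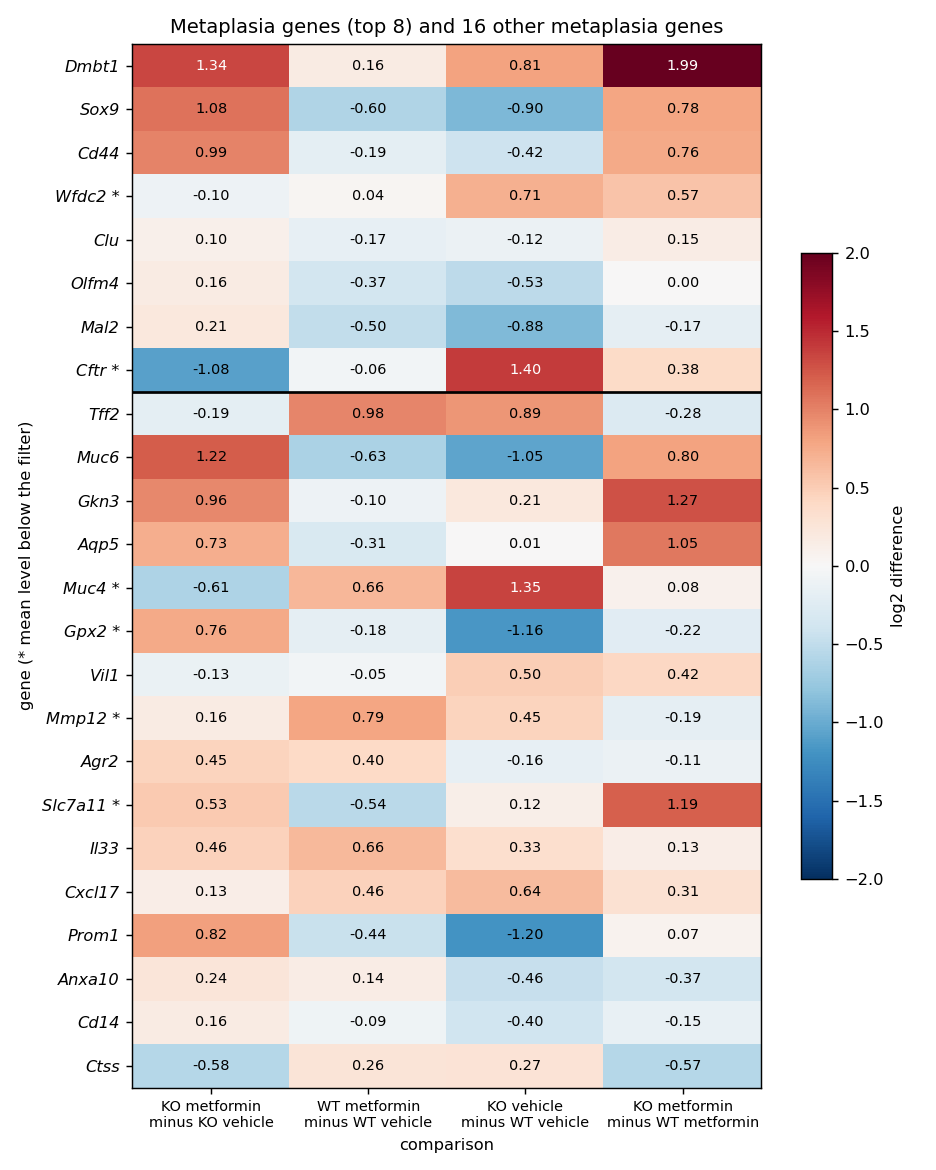
Log2 differences in 4 comparisons between 2 arrays each (columns) for the 8 genes (above the line) and 16 other metaplasia genes (below it), coloured from blue (lower) to red (higher), with an asterisk where the mean level lies under the filter. Muc6 (1.22, -0.63, -1.05 and 0.80 from left to right) has the same signs as Sox9 and Cd44 in every column, and Tff2 (-0.19, 0.98, 0.89 and -0.28) has the opposite signs.

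Markers of cell types that metaplasia replaces or accompanies were also examined. Of 5 chief cell genes none differed by 1 in any of the 4 comparisons, and their list median was between -0.03 and 0.09 in all of them. Pgc (13.99 to 14.02) lay at the top of the deposited values, which end at 14.02, and Chia1 (13.06 to 13.22) lay close below. A change in such genes may not show. In KO against WT under vehicle, the less abundant Bhlha15 was at 0.51 and Cblif at -0.23. Of 8 injury and paligenosis genes, the program by which mature gland cells re-enter the cell cycle, 7 passed the filter and none reached a difference of 1. Atf3 was between 6.49 and 6.88 on the 4 arrays. In KO against WT under vehicle, Ifrd1 was at -0.85 and Il13ra1 at -0.82. The list median there was -0.38, beside -0.22 over all genes past the filter. Of 6 proliferation genes none reached 1 either, and Mki67 was between 6.82 (KO vehicle) and 7.45 (KO metformin). Among 9 macrophage and leukocyte genes, Lyz2 had 7.97 (KO metformin), 8.97 (KO vehicle), 8.33 (WT metformin) and 7.51 (WT vehicle), a difference of -1.01 with metformin in KO and of 1.46 in KO against WT under vehicle. It was the only gene of that list to reach 1 in those comparisons. Adgre1 (-0.35 and 0.31) and Cd52 (-0.495 and 0.41) had the same signs as Lyz2 in the same differences. Csf1r (0.30 and -0.54) and Itgam (0.13 and -0.63) had the opposite signs, and the list medians were -0.02 and 0.15. Of 12 parietal cell genes, 4 were lower by at least 1 in KO under vehicle (Aqp4 -1.54, Slc9a4 -1.44, Slc26a9 -1.27 and Kcnj15 -1.26) and none was higher, beside 8.12% of all genes that were lower, and the list median was -0.43. None of the 12 reached 1 in the other 3 comparisons. Of 7 smooth muscle genes, 3 were lower by at least 1 in KO under vehicle, beside 8.12% of all genes. With metformin in KO 2 of the 7 were higher, beside 2.44% of all genes. Desmin (Des) was at -1.36 and 1.32 in these comparisons. The part of these cell types in the members' values was not tested.

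Relatives of the members showed no common order. Of 7 WAP family genes, Slpi, Wfdc1 and Wfdc18 passed the filter, and Wfdc18 had 4.65 (KO metformin), 5.53 (KO vehicle), 5.09 (WT metformin) and 4.89 (WT vehicle). Of 5 olfactomedin genes, Olfm1 had 5.64, 5.08, 5.82 and 5.97 on the same arrays, lowest on the KO vehicle array as Olfm4 was. Mal, the founding member of the MAL family, had 10.76 (KO metformin), 10.16 (KO vehicle), 11.09 (WT metformin) and 11.17 (WT vehicle), so that both KO arrays lay below both WT arrays as for Mal2. Among 8 measured genes of apical chloride and bicarbonate transport, the goblet cell gene Clca1 was higher in KO by 1.52 under vehicle and by 1.03 under metformin, and the bicarbonate cotransporter Slc4a4 was higher by 1.04 with metformin in KO. The chloride transporter gene Slc26a9, which also stands in the parietal list, was lower by 1.27 in KO under vehicle, where the list median was -0.44.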

How the data were processed

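Biotinylated cDNA from total RNA of gastric corpus was hybridised to Affymetrix arrays, per the labels' protocols. The authors deposited log2 expression per probe set, with RMA (robust multi-array averaging) and Partek named as tools, per the submitters' processing notes. No version, setting or background level is stated there, and the values themselves (0.77 to 14.02) gave the log2 scale. Groups were taken from sample titles. Precision is limited by having 1 array per group.

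Of 41345 probe sets, 23521 had 1 gene, 1814 several and 16010 were unnamed here. Symbols were updated by gene identifier in a RefSeq table, which held 23328 of the 23521. The highest-mean probe set stood for a gene. The filter kept genes whose mean reached the median over genes.

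Differences are log2 values of 1 array minus another, called at 1 (2-fold), with no p-value. Averaged effects came from limma 3.58.1 under R 4.3.3, using lmFit and eBayes with additive terms for treatment and genotype, and p-values were adjusted by Benjamini-Hochberg over all genes (threshold 0.05). The fit was tested on simulated data. Other steps used Python 3.11.15, pandas 2.3.3 and numpy 2.4.6.

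The 8 genes and the 22 gene lists were chosen with earlier results of these data known. Named genes are the 8, the 3 nearest to each in profile, Prkaa1, Prkaa2 and the extremes of each list discussed. Others, and the GC box, cAMP response element and NF-kappaB motifs, were chosen after their values or sequences were seen. Alternatives were no filter, a 75th percentile filter, cyclic loess, centring on the median, the mean of probe sets, a 1.5-fold rule and other variance models.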

Additional observations from a re-analysis of the deposited data

Results flagged for a closer look

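The metformin response of Sox9 had opposite signs in the genotypes, at 1.08 in KO and -0.60 in WT, a difference of 1.68 on the log2 scale. The response of Cd44 did so too, at 0.99 in KO and -0.19 in WT, a difference of 1.18. Both were singled out because the only array of each group moved in opposite directions by a total of 1 or more, and with 1 array per group the difference was not tested. Of all genes past the filter, 11.2% had a KO response above the WT response by at least 1, and 3.61% had one below it by that much. These shares do not ask for opposite signs, which were not counted over all genes. Groups of 1 array allow no check for a sample far from the others.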

How the results depend on the processing

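No direction of a member past the size rule reversed under any alternative run, and the median differences of the members kept their sign in all of them. These medians ranged between 0.19 (no filter) and 0.68 in KO with metformin (0.60 as reported), between -0.50 and -0.18 in WT (-0.28), between -0.88 and -0.27 in KO against WT under vehicle (-0.47) and between 0.15 and 0.47 under metformin (0.46). The largest move in each comparison was under no filter or the 75th percentile filter. Counts of members past the size rule changed as follows. In KO with metformin, 1 was lower with no filter (Cftr, 0 as reported) and 2 were higher as reported, 1 with the 75th percentile filter, and 3 by the 1.5-fold rule or with centred arrays. In WT with metformin, 1 was lower by the 1.5-fold rule (0 as reported). In KO against WT under vehicle, 1 was higher with no filter or by the 1.5-fold rule, and 2 were lower by the 1.5-fold rule or with centred arrays (0 as reported). Under metformin, 3 were higher by the 1.5-fold rule and 0 with the 75th percentile filter (1 as reported). Fewer or more genes tested, or a lower limit, account for these by construction, except with centred arrays, where the cause was not tested.

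Counts over all genes also moved. By the 1.5-fold rule, genes higher and lower numbered 1380 and 412 in KO with metformin (271 and 68 as reported), 396 and 1005 in WT (86 and 103), 825 and 2710 in KO against WT under vehicle (256 and 900), and 345 and 296 under metformin (59 and 43). With no filter, 218 were lower in KO with metformin, 148 higher in WT, 597 higher in KO against WT under vehicle, and 140 higher and 76 lower under metformin. With the 75th percentile filter, 30 were lower in KO with metformin, 59 lower in WT, 141 higher and 575 lower in KO against WT under vehicle, and 18 higher and 25 lower under metformin. With centred arrays, 40 were lower in KO with metformin, 158 lower in WT, and 159 higher and 1359 lower in KO against WT under vehicle, where cyclic loess left 562 lower. The share of calls that were lower moved from 20.1% to 32.5% (cyclic loess) in KO with metformin, from 54.5% to 40.4% (cyclic loess) and 69.3% (centred) in WT, and from 77.9% to 60.4% (cyclic loess) and 89.5% (centred) in KO against WT under vehicle. The cause of the changes with scaling was not tested.

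In limma, genotype calls were 4 higher and 1 lower as reported, 0 lower with no filter, 0 in each direction with the 75th percentile filter, 21 higher and 19 lower with centred arrays and 7 higher with an intensity trend, and metformin calls were 3 higher with centred arrays (0 as reported). No member was called in limma under any of these. The adjusted p of Dmbt1 for genotype in limma varied with the processing. It was 0.999 as reported, 0.741 with cyclic loess, 0.582 with an intensity trend and 0.154 with centred arrays. No paired analysis was possible because each group holds 1 array, and for the same reason no replicate could be left out.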
